A study of Homo sapiens with 87 samples.

Results

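The integrin and cadherin genes, which encode the main receptors that hold cells to matrix and to each other, were followed across losses of BAF complex genes in HAP1 cells. Members were all symbols of the form ITGA or ITGB with a subunit name, or CDH with a number, that stood in both gene-level count tables. This gave 50 of 35438 genes, namely 18 integrin alpha chains, 8 integrin beta chains, the integrin-like ITGBL1 and 23 cadherins, by symbol alone. The knockout table held 3 libraries for each of 24 HAP1 clones and for wild-type HAP1. The clones carried a knockout of ACTB, ARID1A (618-10 and 618-3), ARID1B, ARID2, BCL11A, BCL11B, BCL7A, BCL7B, BRD7, BRD9, DPF1, DPF2, DPF3, PBRM1, PHF10, SMARCA2, SMARCA4 (2878-4 and 2878-6), SMARCC1, SMARCC2, SMARCD1, SMARCD2 or SMARCD3. The double-loss table held 2 libraries for each of 6 groups, which were ARID2 knockout with SMARCA4 knockdown, SMARCA4 knockout with ARID2 knockdown, SMARCA4 knockout with control knockdown, ARID2 knockout with control knockdown, wild type with knockdown of both genes, and wild type with control knockdown. The labels give no treatment for the knockout table and do not say which SMARCA4 clone the double-loss table used. Apart from ARID1A and SMARCA4, each gene was represented by 1 clone, so loss of the gene and other properties of the clone cannot be told apart. The SMARCC2 titles name no clone, and SMARCC2 is counted as 1 clone here. Its samples are numbered among the double-loss samples, apart from the other knockouts and wild type. Loss of SMARCC2 and a difference between those sets of samples cannot be told apart. The labels do not state that libraries of a group were separate cultures, so each p-value reflects the spread among those libraries, which may be technical.

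Integrins are heterodimers of an alpha and a beta chain that bind matrix proteins such as collagen, laminin and fibronectin and connect them through adaptors to actin. Classical cadherins bind like cadherins on neighbouring cells and connect through catenins to actin, and they are divided into type I, with CDH1, CDH2, CDH3 and CDH4, and type II, with most of the others. BAF, also called SWI/SNF, is a remodeller that shifts nucleosomes with SMARCA4 or SMARCA2 as its motor, and HAP1 is an adherent human line with close to a single set of chromosomes that descends from leukaemia cells.

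CDH9, CDH10 and CDH4 carried the largest increases shared by the SMARCA4 and ARID1A clones, and the 250 bases upstream of their RefSeq starts are shown for that reason. Coordinates are those of the RefSeq table, build GRCh38.p14, which is not the build named in the submitters' processing notes. The sequences run 5′ to 3′ on the strand of the gene, and capitals mark CpG dinucleotides, the sites at which vertebrate DNA is methylated.
CDH9, chr5:27038587-27038836, minus strand: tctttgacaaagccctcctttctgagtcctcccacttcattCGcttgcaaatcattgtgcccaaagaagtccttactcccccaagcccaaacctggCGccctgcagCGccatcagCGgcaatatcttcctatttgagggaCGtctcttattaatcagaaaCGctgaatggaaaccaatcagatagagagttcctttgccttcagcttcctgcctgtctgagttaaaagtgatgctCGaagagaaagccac
CDH10, chr5:24644979-24645228, minus strand: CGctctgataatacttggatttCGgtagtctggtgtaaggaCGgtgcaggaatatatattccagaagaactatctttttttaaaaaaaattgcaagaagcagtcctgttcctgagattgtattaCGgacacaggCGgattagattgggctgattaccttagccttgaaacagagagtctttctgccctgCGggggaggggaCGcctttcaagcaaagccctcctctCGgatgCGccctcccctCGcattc
CDH4, chr20:61499171-61499420, plus strand: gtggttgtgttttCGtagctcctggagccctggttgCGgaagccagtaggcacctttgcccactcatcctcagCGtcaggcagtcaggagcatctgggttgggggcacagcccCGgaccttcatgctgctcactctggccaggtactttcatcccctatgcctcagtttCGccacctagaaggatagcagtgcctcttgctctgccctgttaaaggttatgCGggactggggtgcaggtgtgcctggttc
CDH4, chr20:61599511-61599760, plus strand: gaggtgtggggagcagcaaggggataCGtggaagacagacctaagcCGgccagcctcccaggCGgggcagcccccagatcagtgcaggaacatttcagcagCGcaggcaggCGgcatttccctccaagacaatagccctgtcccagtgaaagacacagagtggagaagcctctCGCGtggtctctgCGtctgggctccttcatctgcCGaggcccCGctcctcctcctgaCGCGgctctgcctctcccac
The CDH9 window held 7 CpG at a GC content of 48.4%, and the CDH10 window held 10 CpG at 47.6%. The first CDH4 window held 6 CpG at 58.4%, and the second held 12 at 63.6%. These CDH4 windows belong to separate starts. Whether they cover every start of CDH4, and which start the cells used, was not tested. The median over all 35116 RefSeq promoter windows was 11 CpG at a GC content of 58%. Both strands were searched for the AP-1 motif TGANTCA, the E-box CAGGTG and TATAAA, none of which contains another. TGANTCA was present in 6.52% of the 46 windows of the 30 members in the table and in 6.57% of all windows. CAGGTG was present in 13% of the members' windows and 17.5% of all windows, and TATAAA in 8.7% of the members' windows and 10.7% of all. None of these 3 motifs was found in the CDH9 or CDH10 window, and the first CDH4 window held 1 E-box. CDH10, CDH9 and CDH6 are consecutive protein-coding genes on chromosome 5 in that annotation.

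Total estimated counts per library were 14917644 to 29993652 for the knockouts and 9144150 to 19789622 for the double losses. By correlation of log2 CPM, 72 of the 75 knockout libraries were closest to a library of their own group, the exceptions being replicate 1 of ARID1A 618-10, replicate 1 of SMARCD3 and replicate 3 of wild type. Of the double-loss libraries 8 of 12 did so, and the 4 exceptions included both libraries of wild type with control knockdown. The targeted mRNA was called lower in 14 of 24 clones and lay below every wild-type library in 20, the remaining clones being BCL11A, BCL11B, BCL7A and BRD9. All 10 blood markers stayed below 1 CPM in every group. The summed CPM of 9 epithelial markers was 39.7 to 375.9 in clone libraries and 71.8 to 79.5 in wild type, with KRT19, CLDN4 and ELF3 below 1 CPM throughout. For 7 fibroblast markers the sum was 20.7 to 530.6 in clones and 103 to 125 in wild type, and DCN and LUM stayed below 1 CPM throughout.

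Wild-type HAP1 cells had a broad set of adhesion receptor mRNAs, with the fibronectin and laminin receptor chain ITGB1 at the top. Levels of different genes were compared only on the authors' quantile-normalized log2 TPM, which corrects for transcript length. ITGB1, the beta chain shared by most matrix-binding integrins, averaged 8.64 ± 0.01 log2 TPM in wild type (SD, n = 3, as for the values that follow). CDH6, a type II cadherin, followed at 7.02 ± 0.10 log2 TPM, and CDH2 (N-cadherin) at 6.70 ± 0.05. The next levels were those of ITGA4, a chain of the VCAM1 and fibronectin receptors, at 5.82 ± 0.06, and of ITGAV, which binds RGD motifs, at 5.79 ± 0.19 log2 TPM. ITGA6, a laminin receptor chain, had 5.45 ± 0.26 log2 TPM and ITGA5, the fibronectin receptor chain, 5.40 ± 0.01. The means of ITGA4 and ITGAV, and those of ITGA6 and ITGA5, differed by less than the larger of their SDs. ITGB5, a partner of ITGAV, had 4.96 ± 0.04 log2 TPM. CDH1 (E-cadherin) was close to the bottom, at -2.54 ± 1.08 log2 TPM and with 1, 2 and 9 estimated counts in the 3 wild-type libraries.

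Of the 50 members, 29 passed the filter on low counts among knockout libraries and 25 among double-loss libraries, 24 of them in both. The 21 members that did not pass in the knockout table included the leukocyte chains ITGAL, ITGAM, ITGAX, ITGAD and ITGB2, the endothelial CDH5 and the epithelial CDH1. Among these 21 the highest group mean was 0.63 CPM, reached by CDH1 in ARID1A 618-10, and no library held over 16 counts. CDH1 had 15, 16 and 4 counts in ARID1A 618-10, against 1, 2 and 9 in wild type, and was not tested. A change of these genes below that depth was not detectable here.

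A member was called when its adjusted p was below 0.05 and its log2 fold change, clone over wild type, was at least 1 in size, by edgeR's quasi-likelihood test with Benjamini-Hochberg adjustment over all genes tested. All folds below are log2 of CPM ratios as fitted by that model, and the 24 comparisons share the same 3 wild-type libraries. In bulk RNA, fewer cells that express a gene and less RNA per cell cannot be told apart. Of the 29 members tested, 18 were called in at least 1 clone, which is 62.07%, against 4087 of all 16159 genes tested, or 25.29%. Over the 24 clones there were 60 calls upward and 31 downward, so that 13.07% of member tests were calls, against 4.704% for all genes. Members that pass a filter on low counts are expressed in this line, and their share was not compared with genes of like level. These counts, and those of ACTB below, include CDH13. It passed the filter through the ACTB clone, so its call there adds nothing to the share. CDH3 and CDH9 were called in 16 clones each, and no other member was called in 8 or more.

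The SMARCA4 clones had the most called members. In SMARCA4 2878-4, 10 members were higher, against a background of 5.99% of all genes called upward, and 2 were lower, against 5.28% downward. Together these were 41.38% of the 29 members, against 11.3% of all genes. In SMARCA4 2878-6, 8 members were higher, against 5.53% of genes called upward, and 0 lower, against 4.72% downward, which is 27.59% of members against 10.2% of genes. In ARID1A 618-10, 6 members were higher and 1 lower, with 6.28% of genes called, and in ARID1A 618-3, 5 were higher and 0 lower, with 6.1% of genes called. SMARCC1 had 5 members higher and 1 lower, with 6.1% of genes called, and ACTB had 4 higher and 2 lower, with 5.1%. In ARID2, 4 members were higher and 1 lower, with 5.53% of genes called. BCL11B had 2 higher and 3 lower with 3.81% of genes called, and SMARCD1 had 3 higher and 2 lower with 4.57%. These clones had a larger share of members than of genes called. Markers of other cell types also differed between clones and wild type. Summed epithelial markers were 290 to 376 CPM in 2878-4 and 290 to 312 CPM in 2878-6, and summed fibroblast markers 411 to 531 and 337 to 455 CPM, against 71.8 to 79.5 and 103 to 125 CPM in wild type. Fibroblast sums were also above wild type in ACTB, at 199 to 212 CPM, and in ARID1A 618-10, at 156 to 178 CPM, where the epithelial sum was 120 to 140 CPM. In ARID1A 618-3 the fibroblast sum was 129 to 144 CPM and the epithelial sum 48.0 to 64.4 CPM. ARID2, BRD7 and SMARCD2, at 190 to 224 CPM, likewise lay above wild type for fibroblast markers. The lowest fibroblast sums, all below wild type, were 21.6 to 24.9 CPM in ARID1B, 20.7 to 25.7 CPM in BCL7B, and 34.0 to 45.9 CPM in BCL11A, BCL11B, SMARCD1 and SMARCD3. The part of these markers in the results was not tested.

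Calls went mostly downward in some clones. BCL7B had 0 members higher and 4 lower, with 6.12% of genes called, and ARID1B had 1 higher and 3 lower, with 6.86%. BCL11A had 1 higher and 2 lower with 4.14% of genes called, and SMARCD3 likewise with 3.47%. BRD9 had 2 lower with 3.28% of genes called, DPF3 had 2 lower with 1.34%, and DPF1 had 1 lower with 1.49%. BCL7A had 1 member in each direction with 3.54% of genes called, SMARCC2 with 6.49% and SMARCD2 with 2.8%. BRD7 had 2 higher with 3.55% of genes called, DPF2 with 2.98% and PBRM1 with 2.96%, and PHF10 had 1 higher with 2.68%. A count of 1 or 2 among 29 members moves the share by steps of 3.448%, and nothing is read from such counts. In SMARCA2, 0 members were called with 2.19% of genes called by edgeR; DESeq2 also called 0, and 7 members had an unadjusted p below 0.05.

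**Figure D1:**
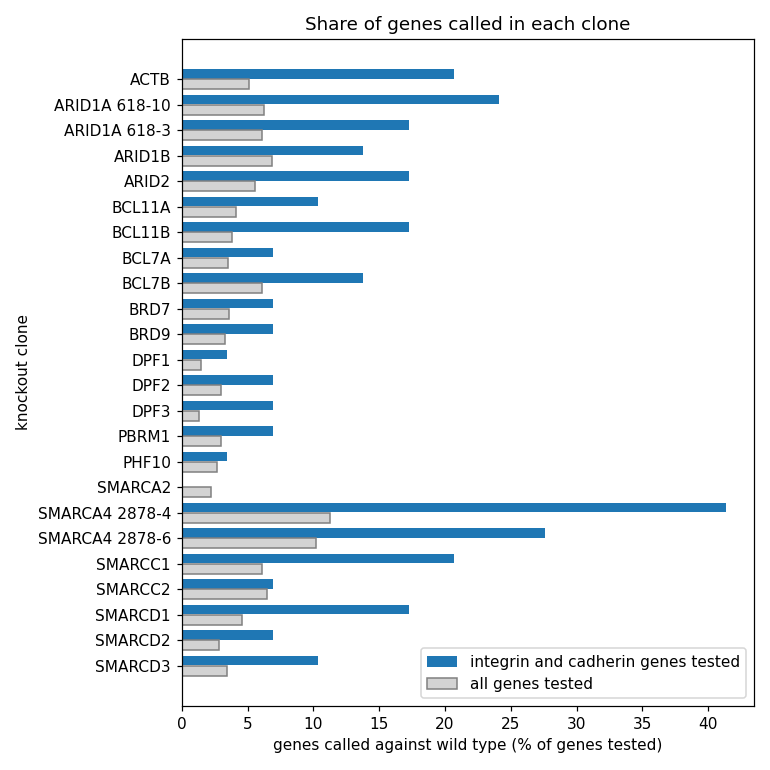
Percent of features called at an adjusted p below 0.05 and a log2 fold change of at least 1 in size, for each clone against wild type, with blue bars for the 29 members tested and grey bars for all 16159 genes tested. The member share was 41.38% in SMARCA4 2878-4 and 27.59% in SMARCA4 2878-6, against 11.3% and 10.2% of all genes.

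By role, the calls were concentrated in the cadherins and in a few integrin chains. The 3 type I cadherins tested had 13 upward and 13 downward calls, 36.11% of their tests, against 4.704% of tests over all genes. The 6 type II cadherins tested had 12 upward and 14 downward, or 18.06%. CDH3 made 16 of the type I calls and CDH9 made 16 of the type II calls. The 2 other cadherins tested had 4 upward and 2 downward, or 12.5%. The 3 laminin-binding alpha chains had 9 upward calls, or 12.5%, and the 3 collagen-binding ones tested had 6, or 8.333%. Neither group had a downward call against wild type. With the other clones in place of wild type, ITGA6 had 1 upward call, ITGA3 and ITGA7 had 0, and ITGA1 had 2 upward and 1 downward. The 6 beta chains tested had 15 upward and 2 downward calls, or 11.81%. Against the other clones ITGB8 had 4 upward and 3 downward calls, ITGB3 had 6 and 3, and ITGB4 had 1 and 0. The RGD-binding alpha chains had 1 upward call among 3 members tested, or 1.389%. ITGA4, ITGA9 and ITGAE, the chain that pairs with ITGB7 in intraepithelial lymphocytes, had 0 calls.

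**Figure D2:**
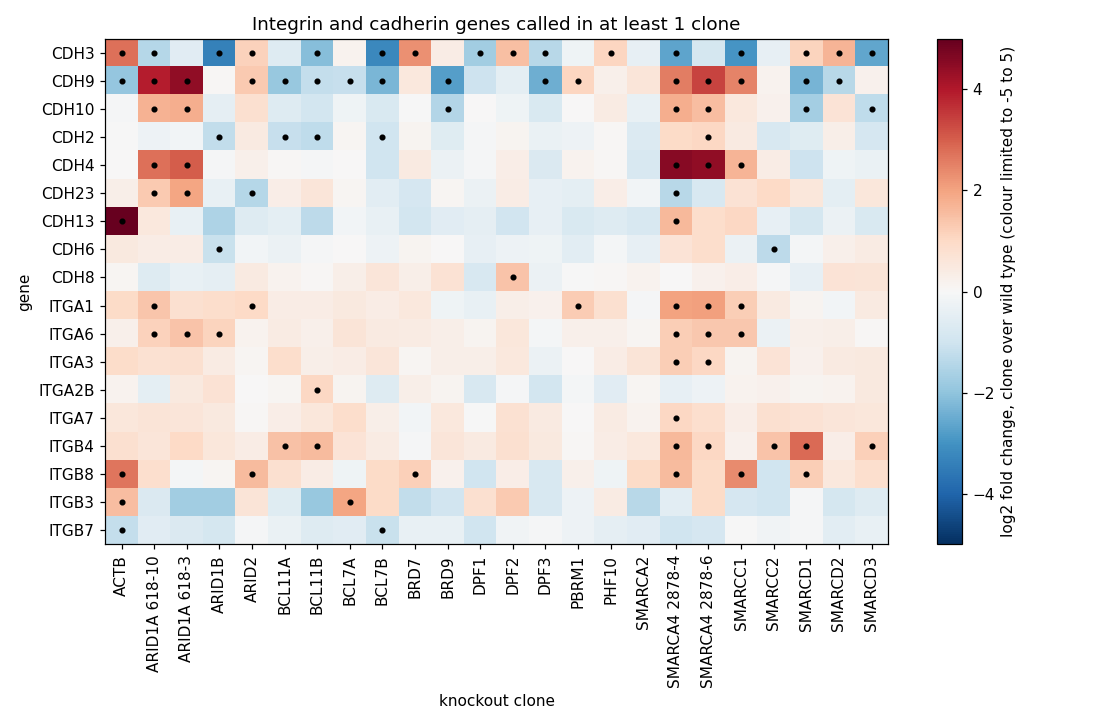
Log2 fold change over wild type of the 18 members called in at least 1 clone (rows) in each of the 24 clones (columns); a dot marks a call, and colours are limited to 5 in size, which CDH13 in ACTB exceeds at 7.62. CDH3 and CDH9 have dots of both signs in many columns, and the dots of the integrin rows are all upward except those of ITGB7.

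CDH3 (P-cadherin), a type I cadherin of epithelia, moved in both directions and over a wide range. There were 7 clones with an upward call and 9 with a downward call. CDH3 had 33.3, 33.4 and 33.6 CPM in ACTB, against 5.27, 3.42 and 6.46 CPM in wild type, the log2 fold change being 2.74 (SE 0.245, adjusted p = 8.38e-14, edgeR). In BRD7 it had 26.9, 23.0 and 24.4 CPM, a log2 fold change of 2.28, and in SMARCD2 13.8, 19.4 and 16.7 CPM. All libraries of these 3 clones lay above the highest wild-type library. CDH3 was also called higher in DPF2, at 14.4 ± 1.2 CPM, and in ARID2, SMARCD1 and PHF10. The calls in the last 3 ended without replicate 2 of every group, wild type included, at 0.79, 0.82 and 0.73. They also ended without replicate 2 of wild type alone, at 0.93, 0.88 and 0.85. At the low end CDH3 had 0.216, 0.422 and 0.756 CPM in ARID1B, the log2 fold change being -3.39 (SE 0.328, adjusted p = 1.20e-12). In BCL7B it had 0.406, 0.455 and 0.727 CPM, a log2 fold change of -3.23. Log2 fold changes of the other clones called lower were -2.94 in SMARCC1, -2.63 in SMARCA4 2878-4, -2.60 in SMARCD3, -1.73 in DPF1, -1.41 in ARID1A 618-10 and -1.37 in DPF3. With the other clones in place of wild type the calls in ARID1A 618-10 and DPF3 ended, at -0.93 and -0.89, and that in DPF3 also in a fit of the clone and wild type alone, as did the upward call in PHF10. BCL11B, at 1.18 ± 0.19 CPM against 5.05 ± 1.54 CPM in wild type (SD, n = 3 each), was the ninth. Group means ran from 0.465 to 33.4 CPM, a 71.9-fold range, with wild type inside it. CDH1, its neighbour on chromosome 16, stayed below 1 CPM in every group.

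CDH4 (R-cadherin), a type I cadherin of brain and retina, was called higher than wild type in the SMARCA4, ARID1A and SMARCC1 clones and lower in none. With the other clones in place of wild type CDH4 had 5 upward and 4 downward calls, the latter in BCL7B, DPF3, SMARCA2 and SMARCD1. It had 11.8, 13.1 and 14.4 CPM in SMARCA4 2878-4 and 11.8, 12.0 and 13.3 CPM in SMARCA4 2878-6, against 0.560, 0.540 and 0.588 CPM in wild type, which rest on 10, 12 and 13 counts. Its log2 fold changes were 4.55 (SE 0.309, adjusted p = 5.73e-19) and 4.45 (SE 0.309, adjusted p = 1.76e-18). In ARID1A 618-10 it had 3.05, 4.18 and 4.24 CPM and in ARID1A 618-3 3.17, 5.48 and 5.25 CPM, with log2 fold changes of 2.74 and 3.01. SMARCC1 had 1.79, 1.68 and 2.15 CPM (SE of the log2 fold change 0.325, adjusted p = 3.96e-05). None of the libraries of these 5 clones overlapped wild type, and those of the SMARCA4 clones lay above those of the other clones named.

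CDH2, the N-cadherin of neural and mesenchymal cells, was abundant in every group. It had 195, 204 and 242 CPM in SMARCA4 2878-6, against 103, 102 and 106 CPM in wild type, the log2 fold change being 1.05 (SE 0.127, adjusted p = 5.79e-10). Without replicate 3 of every group it was 0.97 and no longer called. In SMARCA4 2878-4 it had 187, 210 and 194 CPM, and its log2 fold change of 0.95 (adjusted p = 8.54e-09) missed the minimum size. CDH2 was called lower in BCL11B (log2 fold change -1.25), ARID1B (-1.24), BCL11A (-1.15) and BCL7B, at 51.8 ± 5.2 CPM against 103.5 ± 2.0 CPM in wild type (SD, n = 3 each). The BCL7B call ended under several leave-outs, among them without replicate 2 of every group, at -0.94.

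**Figure D3:**
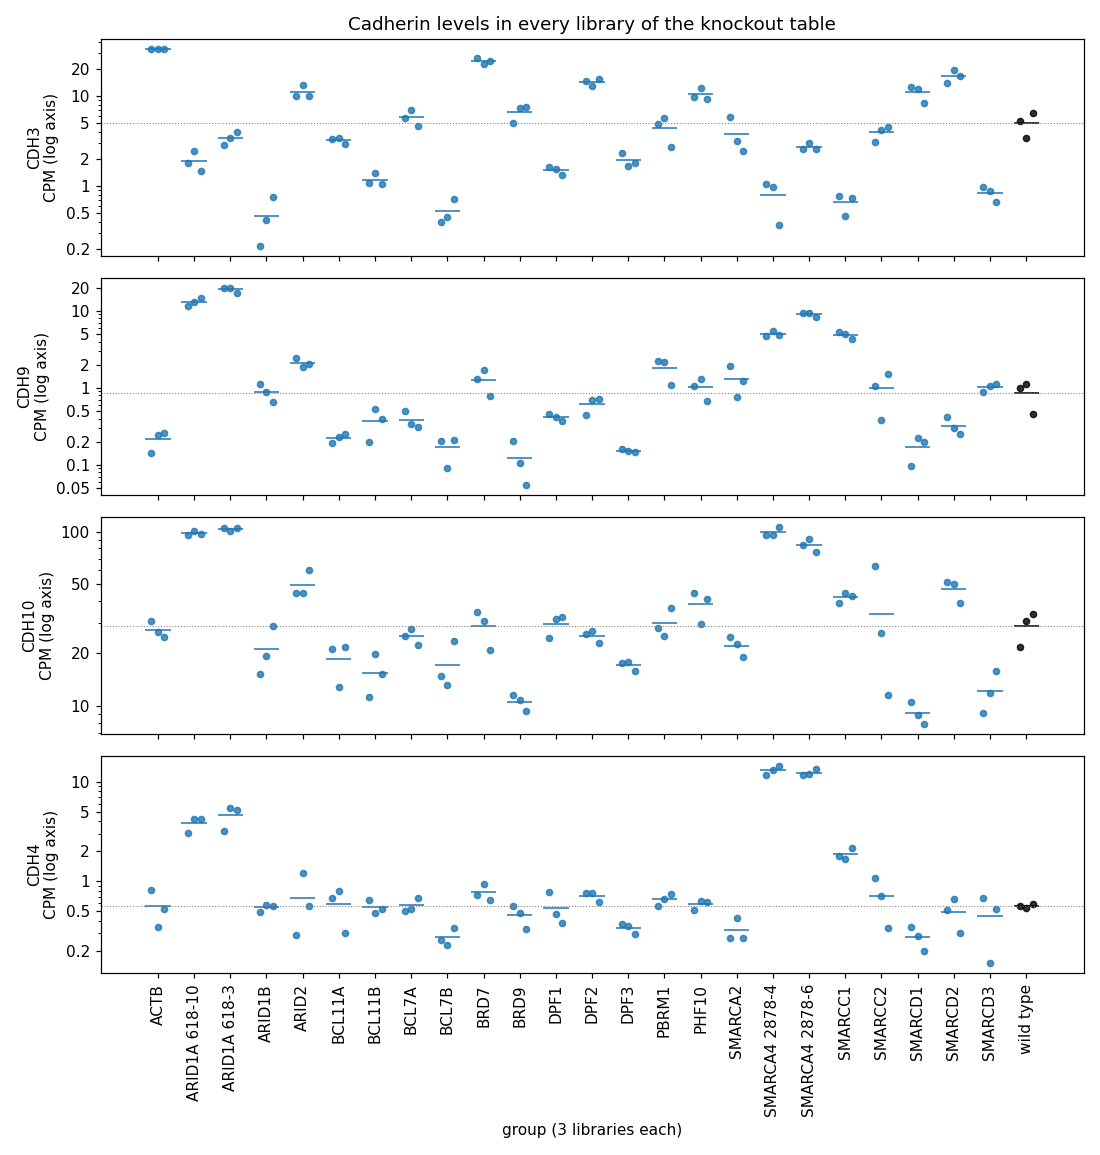
CPM on a log axis in each library of the 24 clones and, at the right in black, wild type, for CDH3, CDH9, CDH10 and CDH4; the dotted line is the wild-type mean. CDH4 and CDH10 are highest in the SMARCA4 and ARID1A clones, and CDH9 reaches 19.95 CPM in ARID1A 618-3, against at most 1.12 CPM in wild type.

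CDH9, a type II cadherin of neurons, had 7 upward and 9 downward calls and was highest in the ARID1A clones. It had 19.95, 19.8 and 17.3 CPM in ARID1A 618-3 and 11.6, 12.9 and 14.8 CPM in ARID1A 618-10, against 1.01, 1.12 and 0.452 CPM in wild type, which rest on 18, 25 and 10 counts. Against wild type the log2 fold changes were 4.44 (SE 0.292, adjusted p = 4.80e-19) and 3.92 (SE 0.290, adjusted p = 5.67e-17). CDH9 had 9.33, 9.38 and 8.34 CPM in SMARCA4 2878-6 and 4.72, 5.53 and 4.90 CPM in SMARCA4 2878-4, with log2 fold changes of 3.40 and 2.58. In SMARCC1 it had 5.30, 4.98 and 4.31 CPM, a log2 fold change of 2.49. These 5 clones did not overlap wild type. ARID2, at a log2 fold change of 1.32, and PBRM1, at 1.08, were also called. The PBRM1 call ended without replicate 1, 2 or 3 of every group (1.03, 1.22 and 1.01) or without replicate 3 of wild type alone (0.76). The lowest levels were those of BRD9, with 0.204, 0.107 and 0.0545 CPM, the log2 fold change being -2.75 (SE 0.473, adjusted p = 1.42e-05). They rest on 4, 2 and 1 counts, of which 1 is the lowest value a library can hold here. The other clones called lower also had few counts. Leaving 1 replicate number out of every group ended the call in ACTB (-1.59 without replicate 1), BCL11A (-1.68 without replicate 1), DPF3 (-2.16 without replicate 2), SMARCD2 (-1.06 without replicate 2), BCL11B (-0.78 without replicate 1) and BCL7A (-0.79 without replicate 2). The calls in BCL7B, at -2.30, and SMARCD1, at -2.31, remained without each replicate number of every group, and without each wild-type library, in turn. Group means of CDH9 ran from 0.122 to 19.0 CPM, a 156.3-fold range whose lower end is the BRD9 mean from those few counts.

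CDH10, the type II neighbour of CDH9, was called higher in the SMARCA4 and ARID1A clones. It had 95.3, 95.3 and 106.5 CPM in SMARCA4 2878-4 and 83.4, 90.6 and 75.9 CPM in SMARCA4 2878-6, against 21.9, 30.8 and 33.8 CPM in wild type. It had 95.5, 100.6 and 96.8 CPM in ARID1A 618-10 and 104.7, 101.0 and 104.8 CPM in ARID1A 618-3. The log2 fold changes of the 4 clones lay between 1.54 and 1.82 with adjusted p from 3.98e-07 to 9.67e-06, and none of their libraries overlapped wild type. CDH10 was called lower in SMARCD1 (log2 fold change -1.70), BRD9 (-1.46) and SMARCD3 (-1.28), and the calls in BRD9 and SMARCD3 ended without replicate 2 of every group, at -1.42 and -1.20. The 3 libraries of SMARCC2, which was not called, held 63.3, 26.0 and 11.5 CPM, so that they lay both above and below wild type.

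CDH6, the type II cadherin on the other side of CDH9, had no upward call. It was called lower in SMARCC2, at 53.3 ± 3.9 CPM against 130.4 ± 10.8 CPM in wild type (SD, n = 3 each; log2 fold change -1.32, adjusted p = 8.26e-15), and in ARID1B, at 60.6 ± 6.3 CPM. CDH8, another type II cadherin, was called in DPF2 alone, at 1.82 ± 0.27 CPM against 0.668 ± 0.205 CPM in wild type. That call ended without replicate 2 or 3 of every group, at 1.27 and 1.59, and without replicate 1 or 2 of wild type alone, at 1.31 and 1.27. Across the 25 group means of log2 CPM, CDH9 and CDH10 had a Pearson r of 0.836 and a Spearman rho of 0.752, and r was 0.758 without the 2 groups farthest from the median. CDH9 and CDH4, which lie on different chromosomes, had 0.814 and 0.761, and CDH10 and CDH4 had 0.838 and 0.769. CDH3 and CDH9 had a Pearson r of -0.216, although both were called in 16 clones. These correlations are descriptions; the labels give 1 library protocol for all 25 groups, which include 2 clones each of ARID1A and SMARCA4.

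CDH13 (T-cadherin), which lacks a transmembrane part and is held by a lipid anchor, had the largest fitted fold of the members tested. It had 33.9, 32.5 and 29.9 CPM in ACTB, from 713, 656 and 572 counts, against 0.0560, 0.225 and 0.181 CPM in wild type, from 1, 5 and 4 counts. The fitted log2 fold change was 7.62, and it depends on the few counts in wild type. CDH13 had at most 14 counts in any library outside ACTB, so it passed the filter on low counts through that clone, and its fold there is a description. In every other group the mean of CDH13 was at most 0.51 CPM, which it had in SMARCA4 2878-4. It was called there at a log2 fold change of 1.63, which was 0.89 and not called without replicate 1 of every group. CDH23, a cadherin of the hair-cell tip link, was called higher in both ARID1A clones, with 6.44 ± 1.29 CPM in 618-10 and 10.4 ± 1.9 CPM in 618-3, against 2.61 ± 0.24 CPM in wild type (SD, n = 3 each). Its log2 fold changes were 1.29 (SE 0.209, adjusted p = 1.82e-06) and 1.97 (SE 0.208, adjusted p = 1.82e-11). CDH23 was called lower in ARID2 (-1.42) and SMARCA4 2878-4 (-1.40), and its log2 fold change in SMARCA4 2878-6 was -0.80 (adjusted p = 0.00416), below the minimum size.

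Among the laminin-binding chains, ITGA6, which pairs with ITGB1 or ITGB4, was called higher in 6 clones. It had 104.4, 87.4 and 101.4 CPM in ARID1A 618-10, 135.8, 122 and 106.2 CPM in ARID1A 618-3, and 107.1, 110.7 and 116.3 CPM in SMARCC1, against 52.4, 43.8 and 35.7 CPM in wild type. In SMARCA4 2878-4 it had 87.8, 100.8 and 115.5 CPM and in SMARCA4 2878-6 109.1, 108.3 and 111.2 CPM. None of these libraries overlapped wild type. The log2 fold changes ran from 1.11 in ARID1B, the sixth clone, to 1.44 in ARID1A 618-3 (SE 0.156, adjusted p = 3.78e-11). The calls in ARID1A 618-10 and ARID1B ended without replicate 3 of every group, both at 0.98, and that in ARID1B also without replicate 3 of wild type alone, at 0.99. Wild type was the third lowest of the 25 groups, and with the mean of the other clones in place of wild type 1 of the 6 calls remained, in ARID1A 618-3. ITGA3, whose partner is ITGB1, was called in both SMARCA4 clones, with 19.2 ± 1.6 CPM in 2878-4 and 17.3 ± 3.4 CPM in 2878-6, against 8.40 ± 0.91 CPM in wild type (SD, n = 3 each). The log2 fold change of ITGA3 in 2878-6 was 0.85 without replicate 2 of every group and then not called. Neither ITGA3 call was made against the other clones, at 0.80 and 0.63. ITGA7, a laminin receptor of muscle, was called in SMARCA4 2878-4 alone, at 18.4 ± 1.7 CPM against 9.25 ± 1.34 CPM in wild type, with a log2 fold change of 1.02. That of ITGA7 was 0.98 without replicate 1 of every group, 0.97 without replicate 3 of every group and 0.91 without replicate 3 of wild type alone, and then not called.

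ITGA1, a collagen-binding chain that pairs with ITGB1, was called higher in 6 clones and was highest in those of SMARCA4. It had 12.9, 14.9 and 15.6 CPM in SMARCA4 2878-4 and 13.8, 16.8 and 14.3 CPM in SMARCA4 2878-6, against 5.49, 2.70 and 2.89 CPM in wild type. This gave log2 fold changes of 2.00 (SE 0.193, adjusted p = 3.96e-13) and 2.04 (SE 0.193, adjusted p = 2.51e-13). The first wild-type library held nearly as much ITGA1 as the other two together, but no SMARCA4 library overlapped it. Log2 fold changes were 1.40 in ARID1A 618-10, 1.25 in PBRM1 and 1.23 in SMARCC1, and those calls ended with the other clones in place of wild type, at 0.80, 0.64 and 0.63. In ARID2, ITGA1 stood at 1.00 and was not called without replicate 2 (0.96) or 3 (0.62) of every group, or without replicate 2 (0.83) or 3 (0.86) of wild type alone. The collagen-binding ITGA2 and ITGA10 had no call, and ITGA11 was not tested.

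The RGD-binding ITGAV and ITGA5 and the abundant ITGB1 were never called. ITGB1 had group means from 332 CPM in SMARCC2 to 614.8 CPM in SMARCA4 2878-6, against 400.4 CPM in wild type. Its adjusted p was below 0.05 in 8 clones, with log2 fold changes from -0.31 to 0.63, so the differences were smaller than the minimum size set here. ITGAV had log2 fold changes from -0.72 in SMARCC2 (adjusted p = 1.96e-06) to 0.67 in SMARCA4 2878-6 (adjusted p = 3.93e-06). ITGA5 was at most 0.82, in SMARCA4 2878-6 (adjusted p = 1.22e-08), and ITGB5 at most 0.62, in BCL7B. ITGA4 ran from -0.39 in BRD9 to 0.53 in SMARCA4 2878-4. ITGA2B, the platelet chain that binds fibrinogen, was called in BCL11B, at 11.8 ± 0.2 CPM against 5.60 ± 1.17 CPM in wild type (SD, n = 3 each). This call ended without replicate 1 of every group, or of wild type alone, at 0.89 each.

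**Figure D4:**
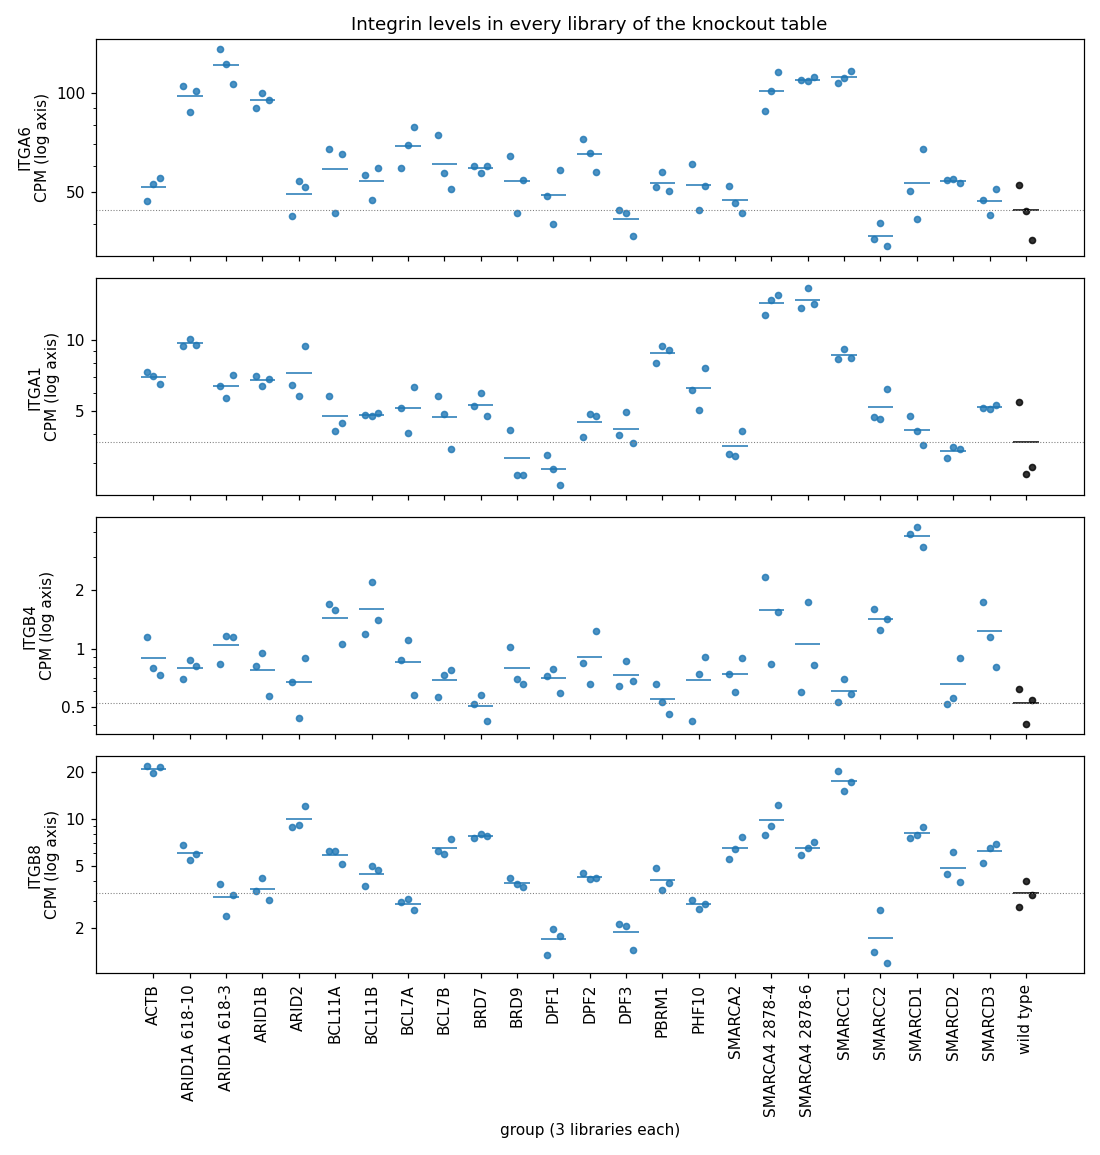
CPM on a log axis in each library of the 24 clones and, at the right in black, wild type, for ITGA6, ITGA1, ITGB4 and ITGB8; the dotted line is the wild-type mean. For all 4 genes the wild-type mean is among the 7 lowest of the 25 groups, and ITGB8 reaches 21.8 CPM in ACTB, against at most 4.00 CPM in wild type.

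ITGB8, a partner of ITGAV that takes part in activating TGF-beta, was called higher in 6 clones. It had 21.8, 19.6 and 21.3 CPM in ACTB and 20.2, 15.03 and 17.1 CPM in SMARCC1, against 2.75, 4.00 and 3.25 CPM in wild type. This gave log2 fold changes of 2.66 (SE 0.190, adjusted p = 1.55e-17) and 2.37 (SE 0.189, adjusted p = 9.04e-16). In ARID2 it had 8.90, 9.14 and 12.0 CPM and in SMARCA4 2878-4 7.92, 9.01 and 12.3 CPM, with log2 fold changes of 1.60 and 1.57. These 4 clones did not overlap wild type. ITGB8 was also called in SMARCD1 (log2 fold change 1.24) and BRD7 (1.20), and both calls ended with the other clones in place of wild type, at 0.67 and 0.62.

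ITGB4, the beta chain of hemidesmosomes that pairs with ITGA6, was low in wild type and called higher in 7 clones. It had 3.92, 4.28 and 3.34 CPM in SMARCD1, against 0.616, 0.405 and 0.542 CPM in wild type, which rest on 11, 9 and 12 counts. The log2 fold change was 2.85 (SE 0.319, adjusted p = 2.09e-10). The other log2 fold changes were 1.61 in SMARCA4 2878-4, 1.59 in BCL11B, 1.46 in BCL11A, 1.43 in SMARCC2, 1.21 in SMARCD3 and 1.02 in SMARCA4 2878-6, and all 6 calls ended with the other clones in place of wild type, which was the second lowest of the 25 groups for ITGB4. Without replicate 2 of every group the calls in SMARCA4 2878-6 (0.32), SMARCD3 (1.10), BCL11A (1.23) and BCL11B (1.12) also ended. So did that in SMARCD3 without replicate 1 of every group (1.00) and, without replicate 2 of wild type alone, those in SMARCA4 2878-6 (0.87) and SMARCD3 (1.05). ITGA6 and ITGB4, which form a heterodimer, had a Pearson r of 0.00782 and a Spearman rho of 0.107 over the 25 group means, whereas ITGA6 and ITGB1 had 0.749 and 0.695. These too are descriptions.

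ITGB3, the partner of ITGA2B and ITGAV, and ITGB7, a leukocyte chain, rested on few counts. ITGB3 had 12, 12 and 19 counts in ACTB and 14, 17 and 29 in BCL7A, against 7, 5 and 3 in wild type, and both were called at log2 fold changes of 1.55 and 1.98. The ACTB call ended without replicate 3 (0.94) or 2 (1.61) of every group or replicate 3 of wild type alone (1.25), and the BCL7A call without replicate 3 of every group (1.24). ITGB7 was called lower in ACTB (-1.18) and BCL7B (-1.12), with 5, 14 and 15 counts in wild type. Both ITGB7 calls ended without replicate 2 (-0.95 and -1.21) or 3 (-0.92 and -0.82) of every group, or without replicate 2 (-1.05 and -0.99) or 3 (-0.97 and -0.91) of wild type alone.

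The clone pairs of ARID1A and of SMARCA4 were compared directly. Between SMARCA4 2878-4 and SMARCA4 2878-6, 1 member was called, with 1.85% of all genes called. That member was CDH3, which had 1.07, 0.975 and 0.373 CPM in SMARCA4 2878-4 and 2.59, 3.03 and 2.60 CPM in SMARCA4 2878-6, a log2 difference of -1.76 (SE 0.314, adjusted p = 6.06e-05). Between ARID1A 618-10 and ARID1A 618-3, 0 members were called by edgeR and 0 by DESeq2, with 1.26% of all genes called by edgeR, while 7 members had an unadjusted p below 0.05 and 3 an adjusted p below 0.05. The largest of these 3 was ITGA2B, with 4.06 ± 0.32 CPM in ARID1A 618-10 and 7.99 ± 1.78 CPM in ARID1A 618-3 (SD, n = 3 each), a log2 difference of -0.97 (adjusted p = 0.0375).

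In the double-loss table each group was compared with wild type with control knockdown, and libraries with the same replicate number deviated together. In SMARCA4 knockout with ARID2 knockdown, 6 members were higher and 1 lower of the 25 tested, with 8.55% of all genes called. In SMARCA4 knockout with control knockdown, 4 were higher and 0 lower, with 6.09% of genes called. In ARID2 knockout with SMARCA4 knockdown, 4 were higher and 1 lower, with 9.31% of genes called, and in ARID2 knockout with control knockdown 1 was higher, with 1.57% of genes called. In wild type with both knockdowns 0 members were called by edgeR and 1 by DESeq2, with 0.562% of genes called by edgeR and 6 members at an unadjusted p below 0.05. With the replicate number as a block, the counts of called members were 8, 5, 7, 2 and 2 in the same order of groups, and the calls without the block were all kept. Without replicate 2 of wild type with control knockdown there were 10 calls in all, against 17 with it.

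CDH4 again had its largest fold in the SMARCA4 knockout. It had 13.0 and 15.5 CPM with ARID2 knockdown and 12.0 and 10.7 CPM with control knockdown, against 0.191 and 0.412 CPM in wild type with control knockdown. The log2 fold changes were 5.53 (SE 0.541, adjusted p = 9.00e-05) and 5.20 (SE 0.540, adjusted p = 0.000142). In the ARID2 knockout it had 1.39 and 0.502 CPM with SMARCA4 knockdown and 1.31 and 0.534 CPM with control knockdown, and was not called. CDH9 had 13.1 and 8.26 CPM in SMARCA4 knockout with ARID2 knockdown and 8.77 and 6.88 CPM in SMARCA4 knockout with control knockdown, against 0.638 and 0.412 CPM in wild type with control knockdown. In ARID2 knockout with SMARCA4 knockdown it had 2.69 and 4.18 CPM, the log2 fold change being 2.62 (SE 0.452, adjusted p = 0.00391). The libraries of these 3 groups lay above both wild-type libraries. CDH10 held 41.6 and 7.42 CPM in the 2 libraries of wild type with control knockdown, and it was called only with the replicate block, at 1.80 in SMARCA4 knockout with control knockdown (adjusted p = 0.0208) and 2.06 with ARID2 knockdown (adjusted p = 0.00773). CDH3 was called in no double-loss group, with or without the block. In ARID2 knockout with control knockdown its log2 fold change was -1.54 (adjusted p = 0.399, edgeR), against 1.145 in the ARID2 clone, where it was called. In SMARCA4 knockout with control knockdown CDH3 stood at -0.30, ITGA3 at 0.44 and ITGB4 at 0.07, and none was called.

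**Figure D5:**
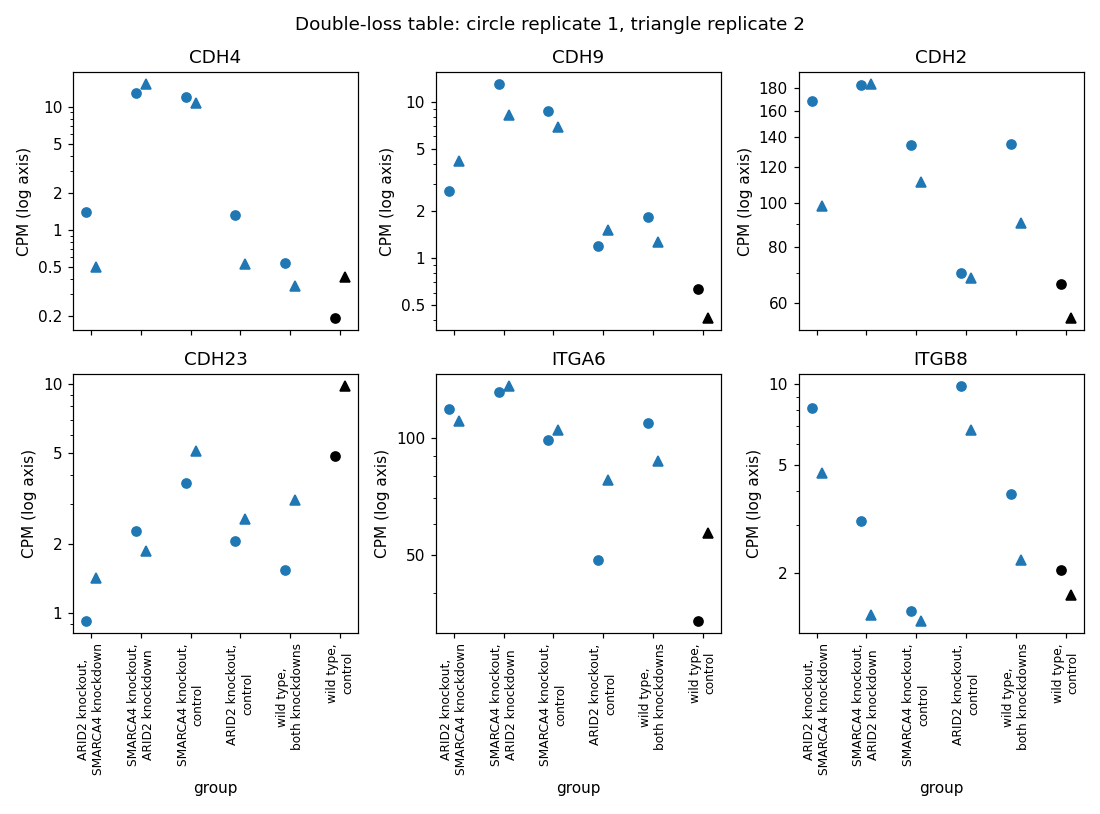
CPM on a log axis in the 2 libraries of each double-loss group (circle, replicate 1; triangle, replicate 2) for 6 members, with wild type with control knockdown at the right in black. CDH4 and CDH9 are highest in the SMARCA4 knockout groups, at 10.7 to 15.5 and 6.88 to 13.1 CPM, and CDH23 is highest in wild type with control knockdown, at 4.85 and 9.81 CPM.

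CDH2 had 182.4 and 183.7 CPM in SMARCA4 knockout with ARID2 knockdown, against 66.3 and 55.5 CPM in wild type with control knockdown, the log2 fold change being 1.55 (SE 0.239, adjusted p = 0.00157). In SMARCA4 knockout with control knockdown CDH2 averaged 122.8 CPM, and its log2 fold change of 0.97 (adjusted p = 0.0278, edgeR) missed the minimum size. With both knockdowns in wild type CDH2 averaged 112.7 CPM, at 0.87 (adjusted p = 0.130, edgeR), and was not called. In ARID2 knockout with SMARCA4 knockdown it had 168.4 and 98.4 CPM and was called at 1.07, which was 0.67 without replicate 1 of that group and 0.95 without replicate 2 of wild type. CDH6 was called only in SMARCA4 knockout with ARID2 knockdown, at 145.8 and 106.8 CPM against 50.0 and 34.0 CPM in wild type with control knockdown, and the call ended without replicate 1 of that group (1.32) or replicate 2 of wild type (1.30). CDH23 was lower, at 0.927 and 1.42 CPM in ARID2 knockout with SMARCA4 knockdown and 2.28 and 1.88 CPM in SMARCA4 knockout with ARID2 knockdown, against 4.85 and 9.81 CPM in wild type with control knockdown. Its log2 fold changes were -2.67 (SE 0.486, adjusted p = 0.00526) and -1.84 (SE 0.448, adjusted p = 0.0210). The second of these was not called without replicate 1 (-1.98) or 2 (-1.72) of its group or replicate 2 of wild type (-1.24), and the first not without replicate 1 of its group (-2.37). With the block CDH23 was also called in ARID2 knockout with control knockdown, at -1.60, and in wild type with both knockdowns, at -1.64.

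ITGA6 had 131.7 and 136.3 CPM in SMARCA4 knockout with ARID2 knockdown, 98.7 and 105.3 CPM in SMARCA4 knockout with control knockdown and 119.1 and 110.9 CPM in ARID2 knockout with SMARCA4 knockdown, against 33.9 and 56.9 CPM in wild type with control knockdown. The log2 fold changes were 1.52 (adjusted p = 0.00279), 1.12 (adjusted p = 0.0196) and 1.29 (adjusted p = 0.00854). Without replicate 1 of wild type the last 2 were 0.79 and 0.95 and not called, and the middle one was also not called without replicate 1 (1.18) or 2 (1.09) of its group. In wild type with both knockdowns ITGA6 had 109.5 and 87.6 CPM, and it was called at 1.14 with the block alone (adjusted p = 0.0227, against 0.0818 without it). ITGA1 was called in SMARCA4 knockout with either knockdown, at log2 fold changes of 1.28 and 1.16, with 10.6 to 13.6 CPM in those 4 libraries, against 5.04 and 4.62 CPM in wild type with control knockdown; the adjusted p was above 0.05 on leaving out either library of wild type (1.11 to 1.34), either library with control knockdown (1.12 and 1.21) or replicate 2 with ARID2 knockdown (1.08). ITGB8 had 8.16 and 4.69 CPM in ARID2 knockout with SMARCA4 knockdown and 9.84 and 6.76 CPM in ARID2 knockout with control knockdown, against 2.04 and 1.65 CPM in wild type with control knockdown. It was called in both, at 1.72 (adjusted p = 0.0268) and 2.15 (adjusted p = 0.0374), and not in the SMARCA4 knockout groups. The ITGB8 call in ARID2 knockout with control knockdown ended on leaving out any 1 library of its own group, of wild type or of SMARCA4 knockout with control knockdown, at 1.86 to 2.39, and that with SMARCA4 knockdown ended without its replicate 1 (1.32) or either wild-type library (1.88 and 1.59). ITGA7, at -1.13, and ITGB4, at -1.69, were called with the block in ARID2 knockout with SMARCA4 knockdown.

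Against the matching knockout with control knockdown, SMARCA4 knockdown in the ARID2 knockout gave 0 called members by edgeR, with 2.88% of all genes called and 7 members at an unadjusted p below 0.05. The smallest adjusted p was that of CDH2 at 0.0598, and its log2 fold change was 0.88 (SE 0.237). CDH9 had a log2 fold change of 1.28 (adjusted p = 0.104) and ITGA6 of 0.80 (adjusted p = 0.101). With the replicate block in edgeR 0 members were called too, but some adjusted p-values were below 0.05. These were those of CDH2 (0.0121), CDH6 (0.0142) and ITGA6 (0.0402), at log2 fold changes of 0.85, 0.61 and 0.82, below the minimum size. ARID2 knockdown in the SMARCA4 knockout also gave 0 called members, with 0.0205% of all genes called, 6 members at an unadjusted p below 0.05 and a smallest adjusted p of 0.478. With the block the smallest adjusted p there was that of CDH6, at 0.0853.

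Genes that work with these receptors were read from fixed lists, chosen with earlier results of these data known. Of 24 integrin ligand and matrix genes tested, 5 were higher and 2 lower in each SMARCA4 clone, with 11.3% of all genes called in 2878-4 and 10.2% in 2878-6. In each ARID1A clone 5 were higher and 3 lower, with 6.28% of all genes called in 618-10 and 6.1% in 618-3. NPNT (nephronectin), a ligand of the ITGA8 integrin, was lower by log2 fold changes of -5.79 and -5.80 in SMARCA4 2878-4 and 2878-6. Its wild-type mean was 7.78 CPM, so folds of that size end at few counts. NPNT was called in 18 clones, higher in 6 and lower in 12. THBS1 (thrombospondin) had 425 ± 57 CPM in SMARCA4 2878-4 and 407 ± 43 CPM in SMARCA4 2878-6, against 14.97 ± 3.01 CPM in wild type (SD, n = 3 each). Over all clones THBS1 was called higher in 6 and lower in 11. LAMA4, a laminin chain, was lower in both clones of both genes, by -3.80 and -2.78 in ARID1A 618-10 and 618-3 and by -2.63 and -1.97 in SMARCA4 2878-4 and 2878-6. LAMA4 had 0.108 CPM in ARID1A 618-10 against 1.59 CPM in wild type, so its folds depend on few counts. FN1 (fibronectin) was higher in all of its 8 calls. COL1A1, a collagen chain that also stands in the fibroblast list, was called at 2.41 and 2.10 in SMARCA4 2878-4 and 2878-6. In ACTB, VCAM1, the ligand of the ITGA4 integrin, had 20.5 ± 5.1 CPM against 0.285 ± 0.104 CPM in wild type.

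Of 23 integrin adaptor and focal adhesion genes tested, 5 were higher and 0 lower in the ACTB clone, the knockout of beta-actin, with 5.1% of all genes called, 513 higher and 311 lower. They were FLNA, VCL, ZYX, FERMT2 and LIMS2, of which FLNA (filamin, an actin crosslinker) had 2316 ± 169 CPM against 794.8 ± 56.2 CPM in wild type, and VCL (vinculin) had 859.9 ± 43.3 CPM against 388.7 ± 20.2 CPM. In the SMARCA4 clones LIMS2 was higher, at log2 fold changes of 3.93 in 2878-4 and 4.54 in 2878-6, and TNS1 (tensin) lower, at -3.37 and -3.55. Wild type had 0.270 CPM of LIMS2 and 1.62 CPM of TNS1, so these folds depend on few counts. FERMT1 (kindlin), an activator of beta chains, was lower in the SMARCA4 clones (-1.60 and -2.13) and in the ARID1A clones (-1.41 and -1.27). Of 14 catenins and other cadherin partners tested, 3 were called in any clone, against 25.29% of all genes, namely CTNND1 in 2 clones and DSP and PVRL3 in 1 each, all lower. CTNNB1, CTNNA1 and JUP, which connect cadherins to actin, were never called. Of 9 regulators of the epithelial-mesenchymal state tested, OVOL2 was called in 14 clones, higher in 6 and lower in 8, and ZEB1 and ZEB2 in 0. The wild-type mean of OVOL2 was 0.364 CPM, so its folds depend on few counts. ZEB1 and ZEB2 had 38.4 and 36.7 CPM in wild type. SNAI1, a repressor of CDH1, was called higher in the SMARCA4 clones, at 1.41 in 2878-4 and 1.18 in 2878-6.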

How the data were processed

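Poly-A RNA of HAP1 cells was sequenced as stranded libraries, per the labels' protocols. The gene tables as deposited hold an estimated count (expected count) per gene and library, without normalization. They were whole numbers already, so rounding changed nothing, and none was below 1, a value that 39.94% to 47.17% of genes in a knockout library and 45.54% to 49.13% in a double-loss library had. Trimmomatic, Bowtie, Picard, DESeq2 and the builds GRCh37 and hg19 are named per the submitters' processing notes; versions, counter, annotation, strand setting and the treatment of reads shared by similar genes were not given in the sources used here. The authors also deposited log2 TPM with quantile normalization, and 71 of its columns were used, none for SMARCC2. Columns that matched no single labelled sample numbered 8 and were left out.

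Both count tables were fitted separately in edgeR 4.0.16 (R 4.3.3) with filterByExpr, TMM factors (0.966 to 1.03 and 0.977 to 1.05), 1 term per group and robust quasi-likelihood tests, adjusted by Benjamini-Hochberg over 16159 and 14601 genes. CPM values were taken over all counts of a library. Alternatives were DESeq2 1.42.0, limma 3.58.1 on the log2 TPM, other scalings, no filter, no minimum fold, fits of 1 clone and wild type, the other clones as comparison, a replicate block and leaving out libraries. In the knockout table each replicate number was left out of all groups at once, and each wild-type library was left out alone. No library of a clone was left out alone. In the double-loss table each library was left out alone. Counting error alone limits levels near the lowest value; PCR duplicates were not distinguishable from the tables. No pair of libraries agreed within counting noise, the lowest chi-square per degree of freedom being 6.75 in the knockout and 8.9 in the double-loss table.

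In the double-loss table all 30 same-number pairs had correlated deviations above 0.1 (lowest 0.106, mean 0.324), so the numbers were taken to pair the libraries. With 2 libraries per group the deviations of replicate 2 mirror those of replicate 1, so each correlation is counted under both numbers. The pairing comes from this check, since the labels do not state it. Members and lists were chosen with earlier results of these data known. Genes named with values were the most abundant members in wild type; CDH1, CDH2, ITGB1 and ITGAV; members called in both clones of SMARCA4 or ARID1A, between clones or in at least 8 clones; the called members with the largest change in each other clone and double-loss group, at a mean of at least 5 CPM; and the list genes with the largest changes in SMARCA4, ARID1A and ACTB clones or called in most clones. Other members named were chosen after their values were seen. Promoter sequences are RefSeq's. Figures were drawn with Python 3.11.15 and matplotlib 3.10.9.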

Additional observations from a re-analysis of the deposited data

Results flagged for a closer look

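Differences between 2 clones of the same gene were tested directly in the edgeR quasi-likelihood fit with Benjamini-Hochberg adjustment over all genes, and 7 reached an adjusted p below 0.05. Between SMARCA4 2878-4 and SMARCA4 2878-6 the log2 difference was -1.76 for CDH3 (adjusted p = 6.06e-05), -0.82 for CDH9 (adjusted p = 0.0436), 0.30 for ITGA4 (adjusted p = 0.0438) and 0.59 for ITGB8 (adjusted p = 0.0486). CDH9 averaged 5.05 ± 0.42 CPM in SMARCA4 2878-4 and 9.01 ± 0.59 CPM in SMARCA4 2878-6, and ITGB8 averaged 9.75 ± 2.29 and 6.53 ± 0.64 CPM in the same order (SD, n = 3 each). Between ARID1A 618-10 and ARID1A 618-3 the log2 difference was -0.68 for CDH23 (adjusted p = 0.0445), -0.97 for ITGA2B (adjusted p = 0.0375) and 0.95 for ITGB8 (adjusted p = 0.00076). ITGB8 averaged 6.07 ± 0.69 CPM in ARID1A 618-10 and 3.16 ± 0.73 CPM in ARID1A 618-3 (SD, n = 3 each). None of the libraries of a pair overlapped for these 7 differences, and all but CDH3 were below a log2 difference of 1.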

How the results depend on the processing

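Without a minimum fold change there were 138 upward and 61 downward member calls over the 24 clones, against 60 and 31 with it, 7 between clones of a gene, against 1, and 410 for the adhesion lists, against 158. Fits of 1 clone and wild type alone gave 53 upward and 19 downward calls. Between clones, removing the filter on low counts gave 2 calls, ITGAM being added, and leaving out replicates gave 2 each time. Double-loss calls numbered 10 to 22 on leaving out a library, against 17, and knockdown calls inside a knockout 0 to 2, against 0. DESeq2 gave 60 and 29 member calls, limma 54 and 30, the other clones in place of wild type 48 and 38, and members reaching 1 CPM, an alternative added after seeing the data, 58 and 29. The cause of these differences was not tested.

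With the replicate block the double-loss table gave 24 calls, against 17, and 0 inside a knockout; its other effects stand beside the results and it changed no other call there. Of the knockout pairs with the same number, 369 of 900 were correlated above 0.1. Their mean correlation was 0.0541, against -0.027 for other numbers, and 54 of 75 libraries correlated best with their own number. Knockout libraries of the same number thus shared some deviation, weaker than in the double-loss table, and the main fit did not account for it. With the block there were 61 upward, 32 downward, 1 clone and 161 list calls.

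Of 109 called member values, 1559 alternatives kept call and direction in 1406 cases, lost the call in 153 and reversed 0. With the other clones in place of wild type 26 of 91 clone calls were lost, ITGA6 and ITGB4 accounting for 11. Leaving 1 replicate number out of all groups, or leaving out 1 wild-type library, ended 30 of 91 clone calls. Leaving out 1 library ended 10 of 17 double-loss calls. Depth limits the folds of CDH13, ITGB3, ITGB7, CDH4, ITGB4, CDH8 and CDH9 in particular, which have few counts in wild type.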
